A study of Mus musculus with 2 samples.

Results

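Pancreatic polypeptide (PP) cells of mouse islets are described here from 2 droplet single-cell RNA libraries. A cell counted as a PP cell when it had at least 500 detected genes and at most 10% mitochondrial counts, and when Ppy took at least 15% of its counted RNA molecules. In the same cell, Sst had to take under 1%, Gcg under 5%, and Ins1 and Ins2 together under 10%. The rule found 347 PP cells among 10781 cells past the filter. Of these, 155 of 4394 cells (3.53%, exact Clopper-Pearson 95% interval 3.002 to 4.12%) belonged to the library of the high-fat diet (HFD) and 192 of 6387 cells (3.01%, 2.60 to 3.45%) to that of regular chow, and the intervals overlapped. Intervals in this text cover counting error only.

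PP cells are the rarest of the 4 main endocrine cells of the islet and secrete pancreatic polypeptide, the product of Ppy, a hormone of the neuropeptide Y family that is released after meals and restrains food intake and exocrine secretion through the receptor NPY4R. Its close relative peptide YY is encoded by the neighbouring gene Pyy and is made in islets and in the gut. PP cells lie mostly in the part of the pancreas that forms from the ventral bud, and they are close in origin to alpha cells.

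All mice were wild-type C57BL/6J, a common inbred strain. The HFD library pooled islet cells of 5 mice fed 60% fat for 6 weeks after weaning, and the chow library those of 4 mice on regular chow for the same time. Islets were picked by hand, which favours endocrine cells, kept in culture overnight and dispersed with trypsin before capture, so levels are those of cultured islets. There is 1 library per diet, and cells could not be assigned to single mice. Diet, library and pool of mice therefore cannot be told apart, no test of diet could be made. Ratios between cell types were taken within each library and given without a test, since the cells were chosen by their own counts, and every statement below describes these libraries.

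The libraries held 4539 HFD and 6509 chow barcodes with medians of 13911 and 12414 unique molecular identifiers (UMIs, each standing for 1 captured RNA molecule), and the smallest barcode had 4017 UMIs in the HFD and 3846 UMIs in the chow library. PP cells had a median of 14783 UMIs in the HFD and 14029 UMIs in the chow library, and summed to 2395284 and 2816979 UMIs. They were set against alpha cells (Gcg at least 5%, 387 HFD and 749 chow cells), beta cells (Ins1 and Ins2 at least 20%, 3034 and 4498 cells) and delta cells (Sst at least 1%, 388 and 468 cells). Cells that met several of these gates, 81 in the HFD and 106 in the chow library, were left out. A doublet caller that had not worked at its automatic setting was replaced by its top 5% of scores, which held 5 of 155 HFD and 3 of 192 chow PP cells. The libraries shared 45 barcodes, 3 of them HFD PP barcodes, and no barcode was a PP cell in both.

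The values the rule used are given as a description. Ppy took a median of 43.8% of a PP cell's UMIs in the HFD library (lowest 15.2%, highest 64.6%) and 42.5% in the chow library (lowest 15.1%, highest 61.9%). Median shares of the other hormones in PP cells were 0.0575% in HFD and 0.0820% in chow for Gcg, 0.00930% and 0.0124% for Sst, and 1.52% and 1.86% for both insulin genes. Delta cells carried a median Ppy share of 4.31% in the HFD and 4.06% in the chow library, against 0.137% and 0.164% in alpha cells and 0.0869% and 0.123% in beta cells. A further 37 HFD and 51 chow cells had at least 15% Ppy but failed another condition, of which 16 and 12 met the delta gate and 8 and 23 the alpha gate. Just inside the limit, at 15 to 20% Ppy, lay 10 cells of each library. Their level of the marker Tspan8 was 493 CPM in HFD and 750.3 CPM in chow, where CPM is UMI counts scaled to the same total outside the 5 genes of the rule. Just outside, at 10 to 15%, lay 8 HFD and 12 chow cells, with 407 and 536 CPM of Tspan8.

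Ppy and Pyy lie next to each other on the minus strand of mouse chromosome 11, and their start regions are shown because these neighbours are the hormone genes that mark the cells. The 150 bases before each RNA start are given from RefSeq's promoter table for GRCm38.p6, with the letters TATAA in capitals, for Ppy (chr11:102101320-102101469) and Pyy (chr11:102107833-102107982).
Ppy: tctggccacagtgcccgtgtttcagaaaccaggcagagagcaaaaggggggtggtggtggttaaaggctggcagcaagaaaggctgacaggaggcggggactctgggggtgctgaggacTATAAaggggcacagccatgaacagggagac
Pyy: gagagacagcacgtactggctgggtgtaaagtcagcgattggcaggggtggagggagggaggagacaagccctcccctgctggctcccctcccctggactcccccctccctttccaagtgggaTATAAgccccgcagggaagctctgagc
The starts lie 6513 bases apart, and the table lists 2 starts for Pyy, of which the one shown has TATAA. The motif, searched here on the transcribed strand and without regard to other motifs, begins 31 bases before the start of Ppy and 27 bases before the start of Pyy. TATAA occurs on either strand in 24.9% of the 32851 promoter windows of 300 bases in that table, and on the transcribed strand between 35 and 20 bases before the start in 3.17%. These coordinates are RefSeq's, since the build behind the deposited counts is not given in the sources used here.

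The 5 genes are left out of the CPM total because the rule sets their share and differs by type. Ratios are log2 ratios with 0.5 counts added, of PP cells over another type within a library. Genes with a mean of at least 20 CPM over the values compared were considered, and a gene is said to be higher or lower when the ratio was at least 1 or at most -1 in both libraries. The median ratio of all genes was -0.08 in HFD and -0.16 in chow over alpha cells, -0.19 and -0.25 over beta cells, and -0.12 and -0.19 over delta cells.

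The 3 marker genes that the rule did not use, Pyy, Tspan8 and Folr1, were highest in PP cells among the 4 types in both libraries, and delta cells came next. They were chosen with earlier results of these data known, so their levels describe the cells and are no independent check of the rule. Pyy had 176858 CPM in HFD and 236038 CPM in chow PP cells. In alpha cells the level was 42154 CPM in HFD and 42888 CPM in chow. It was 4532 CPM in HFD and 3605 CPM in chow in beta cells and 99873 CPM in HFD and 109220.0 CPM in chow in delta cells. Its ratio over delta cells was 0.82 in HFD and 1.11 in chow cells, and the HFD value lay under the limit. Tspan8, which encodes a tetraspanin of the plasma membrane, had 839 CPM in HFD and 1048 CPM in chow PP cells. Its level in alpha cells was 37.2 CPM in HFD and 59.5 CPM in chow. Beta cells had 28.5 CPM in HFD and 33.2 CPM in chow, and delta cells 506 CPM in HFD and 609 CPM in chow. Folr1, which encodes a folate receptor held at the cell surface by a lipid anchor, had 339 CPM in HFD and 472 CPM in chow PP cells. The level of alpha cells was 52.6 CPM in HFD and 39.2 CPM in chow, that of beta cells 34.7 CPM in HFD and 42.4 CPM in chow, and that of delta cells 185 CPM in HFD and 213 CPM in chow. Both genes were lower in alpha and beta cells of both libraries by more than the limit, and their ratios over delta cells stayed between 0.73 and 1.15.

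At the level of single cells, at least 1 Tspan8 UMI was found in 92.3% of HFD and 94.8% of chow PP cells, and at least 1 Folr1 UMI in 77.4% and 89.1%. Endothelial cells of the same libraries, which should lack both and are used as a measure of free RNA, gave 15.6% and 7.78% for Tspan8 and 0 of 128 cells (up to 2.84%, exact Clopper-Pearson) and 2.22% for Folr1. Endothelial cells were shallower than PP cells, with medians of 6920.5 UMIs in the HFD and 7149.5 UMIs in the chow library. With every cell thinned to 2000 UMIs, Tspan8 was seen in 72.9% of HFD and 78.6% of chow PP cells, against 5.47% and 3.33% of endothelial cells. The same thinning brought Folr1 down to 41.9% of HFD PP cells. Pyy was seen in all PP cells, but free Pyy RNA was common as well, with a UMI in 48.4% of HFD and 62.2% of chow endothelial cells after thinning, so a share of cells with Pyy is not read here.

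**Figure D1:**
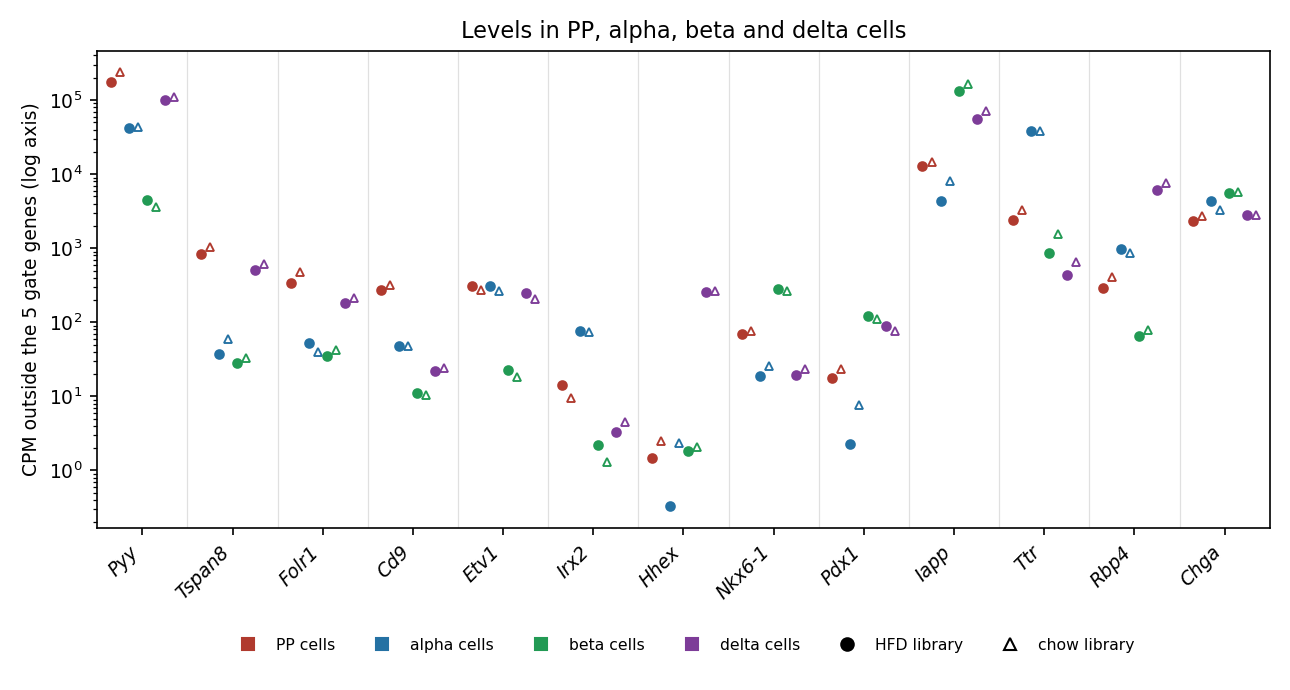
Levels of marker genes and leading genes in PP, alpha, beta and delta cells, in CPM on a log axis. Filled circles are the HFD library and open triangles the chow library. Pyy, Tspan8 and Folr1 sit highest in PP cells with delta cells next, and Cd9 sits at 273 CPM in HFD and 320.0 CPM in chow PP cells with every other type below 50 CPM.

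The 5 neuropeptide Y receptor genes of the list, Npy4r among them, had no UMI in PP cells of either library. Npy itself had 2.23 CPM in HFD and 1.25 CPM in chow PP cells, near the level of 3 counts. Among hormones of other islet cells, Iapp, which encodes the amyloid polypeptide of beta cells, had 13040.5 CPM in HFD and 14725 CPM in chow PP cells, against 133796 CPM in HFD and 163548 CPM in chow beta cells and 54916 CPM in HFD and 72043 CPM in chow delta cells. As a measure of free RNA, Iapp had 3193 CPM in HFD and 4761 CPM in chow endothelial cells. The 14 HFD and 23 chow PP cells richest in Iapp, described below, held 12779 and 12941 of its UMIs. The other 141 HFD and 169 chow PP cells held 4779 and 10575, which is 3935 CPM in HFD and 7620 CPM in chow. Ttr, which encodes transthyretin and marks alpha cells, had 2373 CPM in HFD and 3276 CPM in chow PP cells. Alpha cells had 37859.8 CPM in HFD and 37808 CPM in chow, beta cells 858 CPM in HFD and 1552 CPM in chow, and delta cells 437 CPM in HFD and 654 CPM in chow. Ttr in PP cells was thus far under its alpha level but above its level in beta and delta cells of both libraries. Rbp4, which encodes the retinol carrier abundant in delta cells, had 294 CPM in HFD and 406 CPM in chow PP cells, against 6157 CPM in HFD and 7625 CPM in chow delta cells. Spp1, which encodes osteopontin and also marks duct cells, had 671 CPM in HFD and 1173 CPM in chow PP cells, against 244 CPM in HFD and 1146 CPM in chow endothelial cells, so the chow level was close to that of endothelial cells.

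Against all 3 other endocrine types at once, 7 of 5569 genes (0.126%) were higher in PP cells in both libraries and 14 (0.251%) were lower. Scaled to all UMIs, hormones included, the split was 2 higher and 22 lower, with trimmed-mean factors 9 and 10, with median-of-ratios factors 10 and 10, and with the median of all genes subtracted 9 and 9. The higher genes with a name outside the predicted genes were Cd9, Klf2, Fgb, Kdelr3, Usp18 and Snhg18. They encode a tetraspanin, a transcription factor, a chain of fibrinogen, a receptor that returns proteins to the endoplasmic reticulum, a protease that removes the ubiquitin-like modifier ISG15, and a long non-coding host RNA of a small nucleolar RNA.

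Cd9 had 273 CPM in HFD and 320.0 CPM in chow PP cells (Poisson intervals 245 to 302 CPM and 293 to 349 CPM). In alpha cells the level was 48.01 CPM in HFD and 47.7 CPM in chow. It was 11.1 CPM in HFD and 10.4 CPM in chow in beta cells and 21.97 CPM in HFD and 24.5 CPM in chow in delta cells. No interval of another endocrine type reached that of the PP cells. A Cd9 UMI was found in 76.1% of HFD and 81.2% of chow PP cells, and the 5 cells with most Cd9 held 16.6% and 10.6% of its UMIs, so the level was spread over the cells. Endothelial cells are rich in Cd9 too, with 325 CPM in HFD and 279 CPM in chow endothelial cells. The 5 endothelial markers together had 39.4 CPM in HFD and 55.1 CPM in chow PP cells, against 7857 and 6580.1 CPM in endothelial cells, far under the endothelial level.

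Fgb, the fibrinogen beta chain known from liver, had 189 CPM in HFD and 189 CPM in chow PP cells. Its level in alpha cells was 66.6 CPM in HFD and 57.6 CPM in chow. Beta cells had 6.34 CPM in HFD and 11.6 CPM in chow, and delta cells 4.75 CPM in HFD and 4.49 CPM in chow. It was unevenly spread, with a UMI in 27.1% of HFD and 38.0% of chow PP cells, and the 5 cells with most Fgb held 56.9% and 35.4% of its UMIs. Klf2, which encodes a factor known for keeping endothelial cells and lymphocytes quiet, had 132 CPM in HFD and 23.8 CPM in chow PP cells, against 6.21 CPM in HFD and 4.85 CPM in chow alpha cells, 2.28 CPM in HFD and 2.24 CPM in chow beta cells, 3.56 CPM in HFD and 5.38 CPM in chow delta cells and 356 CPM in HFD and 363 CPM in chow endothelial cells. Its UMIs were held by few cells. The 5 PP cells with most Klf2 held 59.6% of its UMIs in the HFD and 81.6% in the chow library, and the other 187 chow cells had 7 UMIs in all. In the HFD library those 5 cells carried no UMI of the 5 endothelial markers, whereas in the chow library they carried 32, of which 1 cell held 29. The part of endothelial RNA in the Klf2 level was not tested.

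Kdelr3 had 48.3 CPM in HFD and 51.97 CPM in chow PP cells, Usp18 had 39.4 CPM in HFD and 67.00 CPM in chow PP cells, and Snhg18 had 88.4 CPM in HFD and 73.9 CPM in chow PP cells, against levels between 4.31 and 39.8 CPM in the other endocrine types. These 3 genes did not stay past the limit when counts were scaled to all UMIs, and Usp18 also missed it when cells with over 5% mitochondrial UMIs were removed. Cd9, Klf2 and Fgb stayed past it in all 17 alternatives tried. None of these left out the 5 cells with most UMIs of the gene. The other 187 chow PP cells had 7 Klf2 UMIs, too few to put it past the limit over chow alpha or delta cells. Of the Fgb UMIs of HFD PP cells, 5 cells held 145 and the other 150 cells held 110. Those 110 are too few to put Fgb past the limit over HFD alpha cells. The calls against all 3 types thus rested on 5 chow cells for Klf2 and on 5 HFD cells for Fgb.

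Of the 14 genes lower in PP cells than in each other type, 10 are named here. Rfx6, which encodes a transcription factor needed for islet development, had 7.43 CPM in HFD and 8.14 CPM in chow PP cells. The level of alpha cells was 21.9 CPM in HFD and 19.6 CPM in chow, that of beta cells 48.5 CPM in HFD and 29.8 CPM in chow, and that of delta cells 37.1 CPM in HFD and 28.1 CPM in chow. Runx1t1, which encodes a transcriptional corepressor, had 21.5 CPM in HFD and 18.2 CPM in chow PP cells. Alpha cells had 58.1 CPM in HFD and 41.3 CPM in chow, beta cells 101 CPM in HFD and 68.7 CPM in chow, and delta cells 97.4 CPM in HFD and 90.9 CPM in chow. Pde10a, which encodes an enzyme that breaks down cyclic nucleotides, had 36.4 CPM in HFD and 35.7 CPM in chow PP cells. In alpha cells the level was 141 CPM in HFD and 109.7 CPM in chow. It was 117 CPM in HFD and 134 CPM in chow in beta cells and 152 CPM in HFD and 204 CPM in chow in delta cells. Every value in PP cells was under every value in the other types for these 3 genes.

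Syt5, which encodes a synaptotagmin of secretory vesicles, had 12.6 CPM in HFD and 10.02 CPM in chow PP cells, against 90.3 CPM in HFD and 123 CPM in chow delta cells. Syndig1l, whose product is related to a protein of excitatory synapses, had 2.23 CPM in HFD and 6.89 CPM in chow PP cells, against 139 CPM in HFD and 171 CPM in chow beta cells. Lrrn1, Cdk14, Lrrc10b, Vwa5b2 and Car8 made up the 10 lowest, at 1.88 to 21.5 CPM in PP cells. Syt5 and Car8 did not stay past the limit with counts scaled to all UMIs, and Car8 also not with the all-gene median subtracted, while the other 8 stayed past it in all 17 alternatives.

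**Figure D2:**
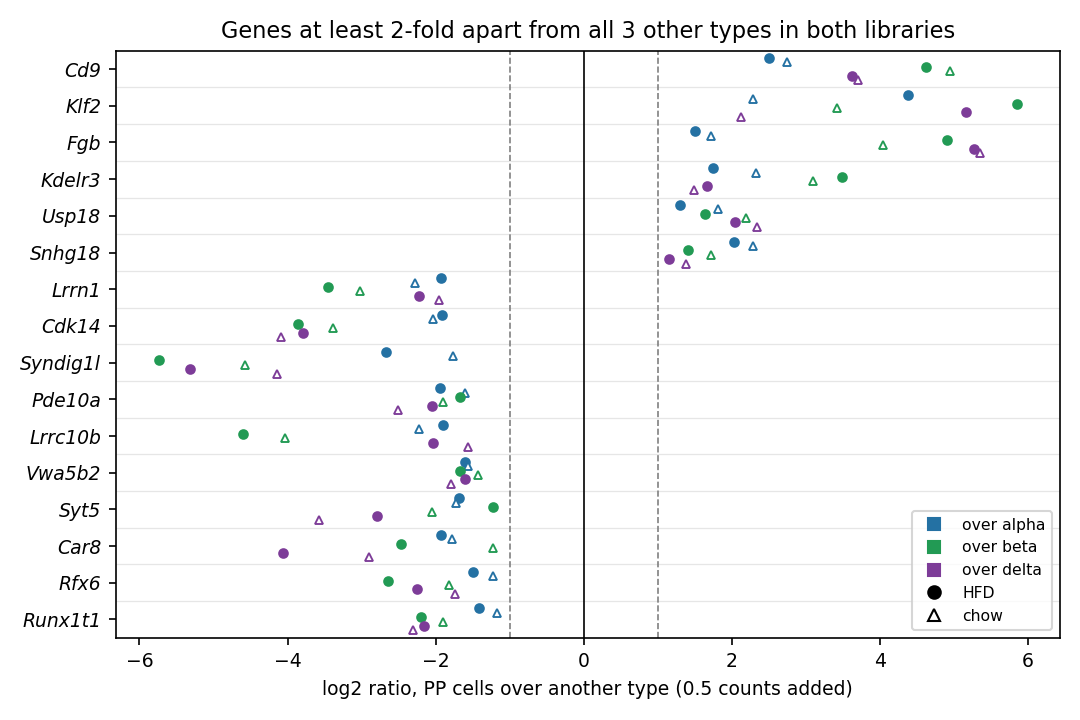
Log2 ratios of PP cells over alpha, beta and delta cells for the genes at least doubled or halved against all 3 types in both libraries. Circles are the HFD and triangles the chow library. Cd9 lies between 2.50 and 4.95 in all 6 ratios, and Rfx6 and Pde10a lie below -1 in all 6.

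Transcription factors shared with other endocrine cells and factors that mark 1 type are given in turn. Etv1, which encodes a factor of the ETS family, had 309.7 CPM in HFD and 272 CPM in chow PP cells. Alpha cells had 307 CPM in HFD and 262 CPM in chow, beta cells 23.02 CPM in HFD and 18.04 CPM in chow, and delta cells 252 CPM in HFD and 204 CPM in chow. Etv1 in PP cells was thus close to its alpha level and above its beta level in both libraries.

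The Iroquois factors of alpha cells were low. Irx1, an Iroquois homeobox gene, had 2.97 CPM in HFD and 3.13 CPM in chow PP cells, against 59.1 CPM in HFD and 66.03 CPM in chow alpha cells, and Irx2 had 14.1 CPM in HFD and 9.39 CPM in chow PP cells, against 77.4 CPM in HFD and 75.1 CPM in chow alpha cells. Irx1 and Irx2 were thus far under their alpha level in both libraries. Irx2 had 31.1 CPM in the 24 HFD PP cells with 0.5 to 5% Gcg, against 10.7 CPM in the other 131. In chow the same split gave 15.3 CPM in 18 cells, against 8.56 CPM in 174. All HFD PP cells together held only 19 Irx2 UMIs, and no order is read from the split in either library.

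Among factors of beta and delta cells, Nkx6-1, a homeobox gene of beta cells, had 69.8 CPM in HFD and 76.4 CPM in chow PP cells. In alpha cells the level was 18.9 CPM in HFD and 25.5 CPM in chow. It was 280.3 CPM in HFD and 264 CPM in chow in beta cells and 19.6 CPM in HFD and 23.3 CPM in chow in delta cells. Pdx1, the homeobox gene of beta and delta cells, had 17.8 CPM in HFD and 23.2 CPM in chow PP cells. Its level in alpha cells was 2.29 CPM in HFD and 7.59 CPM in chow. Beta cells had 121 CPM in HFD and 109.7 CPM in chow, and delta cells 89.96 CPM in HFD and 77.5 CPM in chow. PP cells thus lay between alpha and beta cells for Nkx6-1 and Pdx1 in both libraries. Hhex, the homeobox gene of delta cells, had 1.49 CPM in HFD and 2.50 CPM in chow PP cells, against 260.1 CPM in HFD and 264 CPM in chow delta cells, and its PP level rested on 2 HFD and 4 chow UMIs. Isl1 and Pax6, which are shared by islet endocrine cells, had 312 CPM in HFD and 281 CPM in chow PP cells and 313 CPM in HFD and 212 CPM in chow PP cells. Id1, which encodes an inhibitor of basic helix-loop-helix factors, had 75.01 CPM in HFD and 52.6 CPM in chow PP cells, against 362 CPM in HFD and 239 CPM in chow alpha cells. Of the 25 factors of the list compared with alpha cells, 1 was higher and 5 were lower in PP cells, beside 1.38% higher and 2.07% lower of all genes. Of 26 compared with beta cells, 7 were higher and 8 lower (all genes 2.96% and 11.4%), and of 27 compared with delta cells, 6 were higher and 5 lower (all genes 1.51% and 3.47%).

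Against alpha cells, 72 of 5211 genes were higher and 108 lower in PP cells in both libraries. This split depended on the scaling, with 25 and 262 over all UMIs, 106 and 83 with trimmed-mean factors, 105 and 83 with median-of-ratios factors, and 101 and 82 with the all-gene median subtracted. Limch1, which encodes an actin-binding protein, had 47.5 CPM in HFD and 40.1 CPM in chow PP cells, against 0.327 CPM in HFD and 0.422 CPM in chow alpha cells. Hadh, which encodes an enzyme of fatty acid oxidation known for its high level in beta cells, had 156 CPM in HFD and 161 CPM in chow PP cells. The level of alpha cells was 17.6 CPM in HFD and 19.4 CPM in chow, that of beta cells 409 CPM in HFD and 408 CPM in chow, and that of delta cells 339 CPM in HFD and 306 CPM in chow. At the other end, Gfra3, a receptor subunit for the growth factor artemin, had 0 CPM in HFD and 0.626 CPM in chow PP cells, against 43.8 CPM in HFD and 63.9 CPM in chow alpha cells. Higd1a, which encodes a mitochondrial protein induced by low oxygen, had 60.9 CPM in HFD and 33.2 CPM in chow PP cells, against 633 CPM in HFD and 574 CPM in chow alpha cells. Fbp1, which encodes fructose-bisphosphatase, had 8.17 CPM in HFD and 10.02 CPM in chow PP cells, against 163 CPM in HFD and 83.3 CPM in chow alpha cells. The genes named here for 1 pair of types were the extremes of their ratios and were chosen after the values were seen.

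Against beta cells, 166 of 5603 genes were higher and 641 lower. The split was 176 and 213 over all UMIs, 250 and 442 with trimmed-mean factors, 256 and 424 with median-of-ratios factors, and 262 and 428 with the all-gene median subtracted. At the high end, Kcnk3, which encodes a potassium channel open at rest, had 153 CPM in HFD and 106 CPM in chow PP cells, against 2.37 CPM in HFD and 3.30 CPM in chow beta cells, and was higher still in alpha cells. The low end held the beta cell genes G6pc2, a glucose-6-phosphatase, at 17.1 CPM in HFD and 31.9 CPM in chow PP cells and 818 CPM in HFD and 866 CPM in chow beta cells, Ucn3, a peptide of mature beta cells, at 8.17 CPM in HFD and 21.9 CPM in chow PP cells and 475 CPM in HFD and 533 CPM in chow beta cells, and Prlr, the prolactin receptor, at 14.1 CPM in HFD and 13.1 CPM in chow PP cells and 327 CPM in HFD and 320.3 CPM in chow beta cells. In endothelial cells G6pc2 had 11.9 CPM in HFD and 19.1 CPM in chow cells and Ucn3 had 6.42 CPM in HFD and 16.96 CPM in chow cells.

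Against delta cells, 80 of 5299 genes were higher and 184 lower. The split was 23 and 524 over all UMIs, 100 and 149 with trimmed-mean factors, 97 and 150 with median-of-ratios factors, and 96 and 150 with the all-gene median subtracted. Besides Fgb and Cd9, the high end held Pappa2, which encodes a protease of insulin-like growth factor binding proteins, at 86.9 CPM in HFD and 58.9 CPM in chow PP cells, against 8.31 CPM in HFD and 5.68 CPM in chow delta cells. Ugt2b34, which encodes an enzyme that conjugates glucuronic acid, had 190.1 CPM in HFD and 142 CPM in chow PP cells, against 21.7 CPM in HFD and 16.5 CPM in chow delta cells. The 8 lowest ratios were those of Dpp6, Hhex, Ly6h, Cd24a, Ptn, Ptprz1, Mest and Ppp1r17. Cd24a, a small glycoprotein of the cell surface, had 4.46 CPM in HFD and 10.6 CPM in chow PP cells, against 766 CPM in HFD and 866 CPM in chow delta cells, and Ly6h, a lipid-anchored protein related to snake toxins, had 2.23 CPM in HFD and 0.626 CPM in chow PP cells, against 221 CPM in HFD and 257 CPM in chow delta cells. Dpp6, which encodes a subunit of a potassium channel, had no UMI in PP cells of either library, against 48.99 CPM in HFD and 50.9 CPM in chow delta cells. A count of 0 allows up to 3 UMIs per library, which is 2.23 CPM in HFD and 1.88 CPM in chow PP cells.

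Genes that cut prohormones and pack granules are given next. Pcsk2, which encodes the convertase that makes glucagon in alpha cells, had 3083 CPM in HFD and 2577 CPM in chow PP cells. Alpha cells had 5467 CPM in HFD and 3810.3 CPM in chow, beta cells 4536 CPM in HFD and 3263 CPM in chow, and delta cells 2822 CPM in HFD and 2510.4 CPM in chow. Pcsk1, the convertase of beta cells, had 14.9 CPM in HFD and 12.5 CPM in chow PP cells, against 79.8 CPM in HFD and 115 CPM in chow beta cells. Scg5, whose product 7B2 assists PC2, had 1870.2 CPM in HFD and 2243 CPM in chow PP cells. In alpha cells the level was 1455 CPM in HFD and 1276 CPM in chow. It was 769 CPM in HFD and 1072 CPM in chow in beta cells and 1256 CPM in HFD and 1396 CPM in chow in delta cells. Of 10 processing genes compared with beta cells 1 was higher and 4 were lower, beside 2.96% higher and 11.4% lower of all genes, and of 9 compared with alpha cells and 9 compared with delta cells none was past the limit. With counts scaled to all UMIs, 3 were lower than in beta cells and 1 was lower than in alpha cells.

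Of 21 granule genes compared with beta cells, none was higher and 9 were lower (all genes 2.96% and 11.4%), or 4 to 7 lower under the other scalings. Slc30a8, which encodes the zinc transporter of insulin and glucagon granules, had 74.3 CPM in HFD and 49.5 CPM in chow PP cells. Its level in alpha cells was 518 CPM in HFD and 419 CPM in chow. Beta cells had 545 CPM in HFD and 444 CPM in chow, and delta cells 37.1 CPM in HFD and 29.02 CPM in chow. PP and delta cells were thus the low pair for this transporter in both libraries. Chgb and Scg2, which encode granins, had 981 CPM in HFD and 1243 CPM in chow PP cells and 1623 CPM in HFD and 1933 CPM in chow PP cells, both above the alpha level of 468 CPM in HFD and 384 CPM in chow and 667 CPM in HFD and 531 CPM in chow cells. Of 21 granule genes compared with alpha cells, 2 were higher and 3 lower (all genes 1.38% and 2.07%). Scaled to all UMIs, none was higher than in alpha cells and 4 were lower.

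Of 8 receptor genes for hormones, nutrients and neurotransmitters compared with beta cells, 1 was higher and 6 were lower (all genes 2.96% and 11.4%), or 4 lower under each of the other scalings. The higher one was Ffar4, a receptor for long-chain fatty acids, with 42.3 CPM in HFD and 55.1 CPM in chow PP cells, against 3.68 CPM in HFD and 4.27 CPM in chow beta cells and 96.2 CPM in HFD and 116 CPM in chow delta cells. Ffar1, the other long-chain fatty acid receptor, had 39.4 CPM in HFD and 30.7 CPM in chow PP cells, against 172 CPM in HFD and 130.1 CPM in chow beta cells, 20.3 CPM in HFD and 24.7 CPM in chow alpha cells and 10.1 CPM in HFD and 4.79 CPM in chow delta cells. Chrm3, the muscarinic receptor through which the vagus nerve acts on islet cells, had 18.6 CPM in HFD and 11.3 CPM in chow PP cells, against 1.63 CPM in HFD and 0.844 CPM in chow alpha cells and 28.9 CPM in HFD and 19.7 CPM in chow beta cells. The Chrm3 level was above that of alpha cells in both libraries, though it rested on 25 HFD and 18 chow UMIs. Of 13 genes of glucose handling compared with beta cells, none was higher and 5 were lower (all genes 2.96% and 11.4%), among them Slc2a2, the glucose transporter of beta cells, at 9.66 CPM in HFD and 7.51 CPM in chow PP cells and 202 CPM in HFD and 166 CPM in chow beta cells.

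Tetraspanins are small proteins that cross the membrane 4 times and organise receptors. Of 16 compared with alpha cells 4 were higher and none lower, or 2 to 5 higher under the other scalings, beside 1.38% of all genes higher. Of 15 compared with beta cells 4 were higher and 2 lower (all genes 2.96% and 11.4%), and of 16 compared with delta cells 1, Cd9, was higher and none lower (all genes 1.51% and 3.47%). Besides Tspan8 and Cd9, Cd81, a partner of Cd9 in many cells, had 368 CPM in HFD and 433 CPM in chow PP cells. The level of alpha cells was 222 CPM in HFD and 244 CPM in chow, that of beta cells 79.4 CPM in HFD and 77.5 CPM in chow, and that of delta cells 395 CPM in HFD and 434 CPM in chow. Cd151, which binds laminin-binding integrins, had 86.2 CPM in HFD and 87.7 CPM in chow PP cells. Alpha cells had 35.9 CPM in HFD and 35.6 CPM in chow, beta cells 20.7 CPM in HFD and 20.01 CPM in chow, and delta cells 62.9 CPM in HFD and 67.6 CPM in chow.

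Outside the ductal set, markers of other cell types were low in the PP sums or far under the level of their own type. The 4 ductal markers together had 674 CPM in HFD and 1173 CPM in chow PP cells, nearly all of it Spp1. They had 382 and 538 CPM in alpha, 43.8 and 182 CPM in beta and 114 and 180 CPM in delta cells. The 6 macrophage markers together had 66.1 CPM in HFD and 68.3 CPM in chow PP cells, with Adgre1 and Ptprc at 0 in both. The 5 acinar markers had 14.9 and 43.2 CPM, the 5 mesenchymal markers 8.17 and 5.01 CPM, and the 2 proliferation markers 0.743 and 1.88 CPM. The 5 delta markers outside the rule had 300.1 CPM in HFD and 418 CPM in chow PP cells, against 6449 and 7924 CPM in delta cells. The 7 alpha markers had 2587 and 3466 CPM, against 38589 and 38576 CPM in alpha cells. The 8 beta markers had 13237 and 14935 CPM, nearly all of it Iapp, against 136237 and 165930.0 CPM in beta cells.

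PP cells were not uniform. Iapp per cell, scaled to 10000 UMIs outside the 5 genes of the rule, had a median of 37.6 in HFD and 71.5 in chow PP cells, but reached 1762 in HFD and 1632 in chow cells. A limit of 200, chosen after the values were seen, put 14 HFD cells (9.03%) and 23 chow cells (12.0%) above it. In the HFD library the limit fell in a gap, between 161 and 283, and in the chow library it did not, between 199.7 and 212. The cells above it had a median Ppy share of 20.2% in HFD and 23.5% in chow, against 44.6% and 44.4% in the other PP cells. Of the cells above the limit, 13 of 14 HFD and 16 of 23 chow cells had under 30% Ppy.

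Other genes are given along this split as a description of cells chosen by their Iapp. Chga, which encodes chromogranin A and is abundant in beta cells, had 11016 CPM in HFD and 10859.9 CPM in chow cells above the limit, against 1399.8 and 1457 CPM in the others. Bace2, a protease of beta cells, had 462 and 349 CPM above the limit, against 29.6 and 46.8 CPM. Gch1, which encodes the first enzyme of tetrahydrobiopterin synthesis, had 727 and 655 CPM, against 145 and 187 CPM. Etv1 went the other way, with 98.5 CPM in HFD and 124 CPM in chow cells above the limit, against 333 and 294 CPM in the others.

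Tspan8 and Cd9 were also lower in the Iapp-rich cells, with 402 and 660 CPM of Tspan8 in HFD and chow cells above the limit, against 886 and 1107 CPM, and 98.5 and 163 CPM of Cd9, against 291 and 344 CPM. Folr1 had 447 and 425 CPM above the limit and 328 and 479 CPM below it. Pdx1 had 30.3 CPM in HFD and 52.6 CPM in chow cells above the limit, against 16.5 and 18.7 CPM in the others, and Nkx6-1 had 98.5 and 124 CPM, against 66.7 and 69.2 CPM. Both factors were thus higher above the limit in the chow library, where Pdx1 rested on 11 and Nkx6-1 on 26 UMIs. In the HFD library they rested on 4 and 13 UMIs, so no order is read from the HFD values. G6pc2 had 15.2 CPM in HFD and 43.0 CPM in chow cells above the limit, against 17.3 and 30.3 CPM in the others. Ucn3 had 15.2 CPM in HFD and 28.7 CPM in chow cells above the limit, against 7.41 and 20.9 CPM in the others, and Slc2a2 had 7.58 and 9.56 CPM, against 9.88 and 7.21 CPM. Above the limit Ucn3 had 2 HFD and 6 chow UMIs and Slc2a2 had 1 and 2, so no order is read from them. Insulin took a median of 2.25% in HFD and 2.42% in chow cells above the limit, against 1.49% and 1.83% in the others. Doublet scores in the top 5% were found in 1 of 14 HFD and 1 of 23 chow cells above the limit, against 4 of 141 and 2 of 169 in the others. Whether these cells are a separate kind of PP cell or hold RNA of a second cell was not tested.

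**Figure D3:**
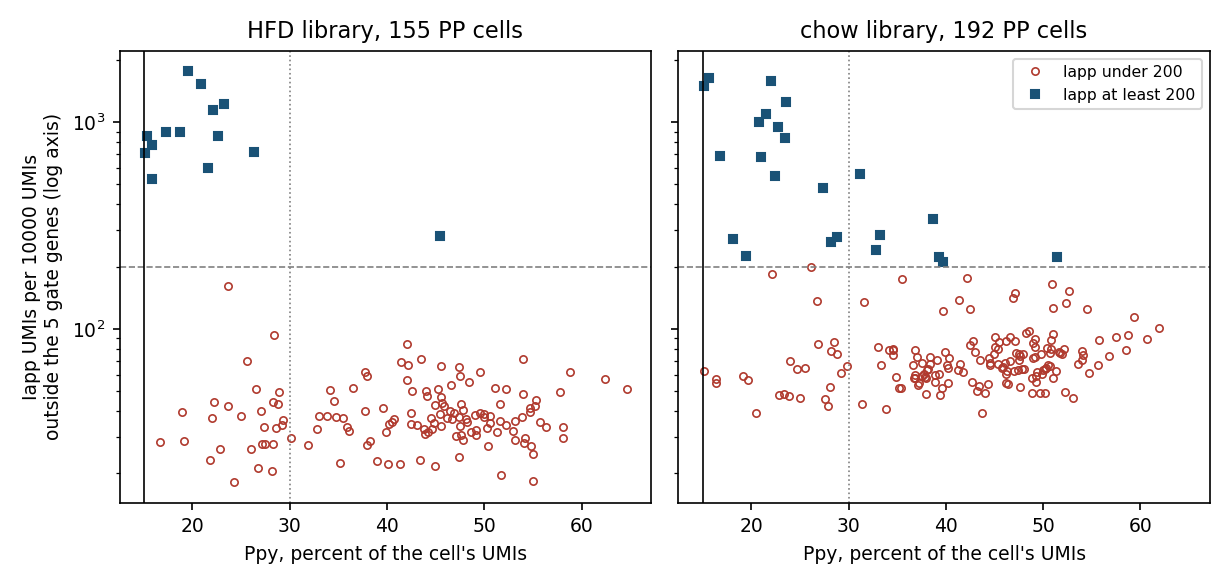
Iapp UMIs per 10000 UMIs outside the 5 genes of the rule (log axis) against the share of Ppy in percent, with 1 point per PP cell, for 155 HFD cells on the left and 192 chow cells on the right. Squares are cells with at least 200 Iapp UMIs per 10000, 14 in the HFD and 23 in the chow library, and most of them lie at low Ppy shares.

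Between diets, the named genes of PP cells ranged from Fosb at the high end to Hspa1a at the low end, and lists of related genes are described after them. Ratios of HFD over chow are given less the median ratio of all genes in that cell type, which was 0.093 in PP, 0.043 in alpha, 0.163 in beta and 0.030 in delta cells. Of 5006 genes compared in PP cells, 67 (1.34%) were at least doubled relative to that median and 38 (0.759%) at most halved. The same limits were passed by 12 (0.224%) and 27 (0.503%) of 5369 genes in alpha, 3 (0.0509%) and 102 (1.73%) of 5890 in beta, and 12 (0.217%) and 15 (0.272%) of 5521 in delta cells. The sums of PP cells held fewer UMIs than those of beta cells, and these counts are not compared between types. PP cells below 30% Ppy made up 26.5% of HFD and 21.4% of chow PP cells, and the median mitochondrial share was 2.09% in HFD and 1.72% in chow PP cells.

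The 3 marker genes are given first. Pyy had 176858 CPM in HFD and 236038 CPM in chow PP cells, with a relative log2 ratio of -0.51, interval -0.52 to -0.502. In alpha, beta and delta cells the ratio of Pyy was -0.07, 0.17 and -0.16. Tspan8 gave -0.41, interval -0.53 to -0.31 and Folr1 gave -0.57, interval -0.74 to -0.40 in PP cells. None of these markers passed the limit of a doubling or halving.

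Fosb, an early response gene of the AP-1 family, had the highest ratio among the 2255 genes with at least 50 CPM on average and a summed count of at least 100. It had 342 CPM in HFD and 30.7 CPM in chow PP cells, a relative log2 ratio of 3.37, interval 2.96 to 3.84, and the ratio was 2.65 in alpha, 0.38 in beta and 1.14 in delta cells. A Fosb UMI was found in 76.1% of HFD and 19.3% of chow PP cells, against 35.9% and 4.44% of endothelial cells, and the 5 cells with most Fosb held 15.6% and 26.5% of its UMIs. Endothelial cells had 78.9 CPM in HFD and 7.06 CPM in chow, so Fosb was higher in the HFD library there as well. Egr1, an early growth response gene, had 806 CPM in HFD and 297 CPM in chow PP cells (1.34, interval 1.19 to 1.504), and the ratio was 1.25 in alpha, 0.62 in beta and 0.97 in delta cells.

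Klf2 had 132 CPM in HFD and 23.8 CPM in chow PP cells and a relative ratio of 2.37, interval 1.87 to 2.93, carried by few cells as described above. Trp53inp1, which encodes a stress protein induced by p53, had 83.2 CPM in HFD and 17.5 CPM in chow PP cells (2.13, interval 1.55 to 2.81), and its ratio was 0.501 in alpha and 0.53 in beta cells. Krt8, which encodes a keratin of simple epithelia, had 462 CPM in HFD and 187 CPM in chow PP cells (1.21, interval 1.01 to 1.41), with 0.55 in alpha, -0.54 in beta and -0.11 in delta cells. The 5 PP cells with most Krt8 held 25.6% of its UMIs in HFD and 16.4% in chow. Krt18, the keratin partner of Krt8, had 458 CPM in HFD and 329 CPM in chow PP cells (0.39, interval 0.22 to 0.56).

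Agpat4, an acyltransferase of phospholipid synthesis, had 81.7 CPM in HFD and 30.1 CPM in chow PP cells (1.34, interval 0.85 to 1.87). Tob1, an antiproliferative gene, had 106 CPM in HFD and 41.95 CPM in chow PP cells (1.24, interval 0.82 to 1.69), and Ccnl1, a cyclin linked to splicing, had 131 CPM in HFD and 53.8 CPM in chow PP cells (1.19, interval 0.82 to 1.58). Lztfl1, which encodes a protein of cilia traffic, had 82.4 CPM in HFD and 34.4 CPM in chow PP cells (1.16, interval 0.69 to 1.66). Tmsb15b1 had 94.3 CPM in HFD and 37.6 CPM in chow PP cells (1.23, interval 0.78 to 1.70), but near-identical thymosin genes can share its reads and its level is uncertain. Among these, Lztfl1 fell under the limit when PP cells with 0.5% Gcg or more were left out, while the other 9 of the 10 highest stayed past it in all 15 alternatives.

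**Figure D4:**
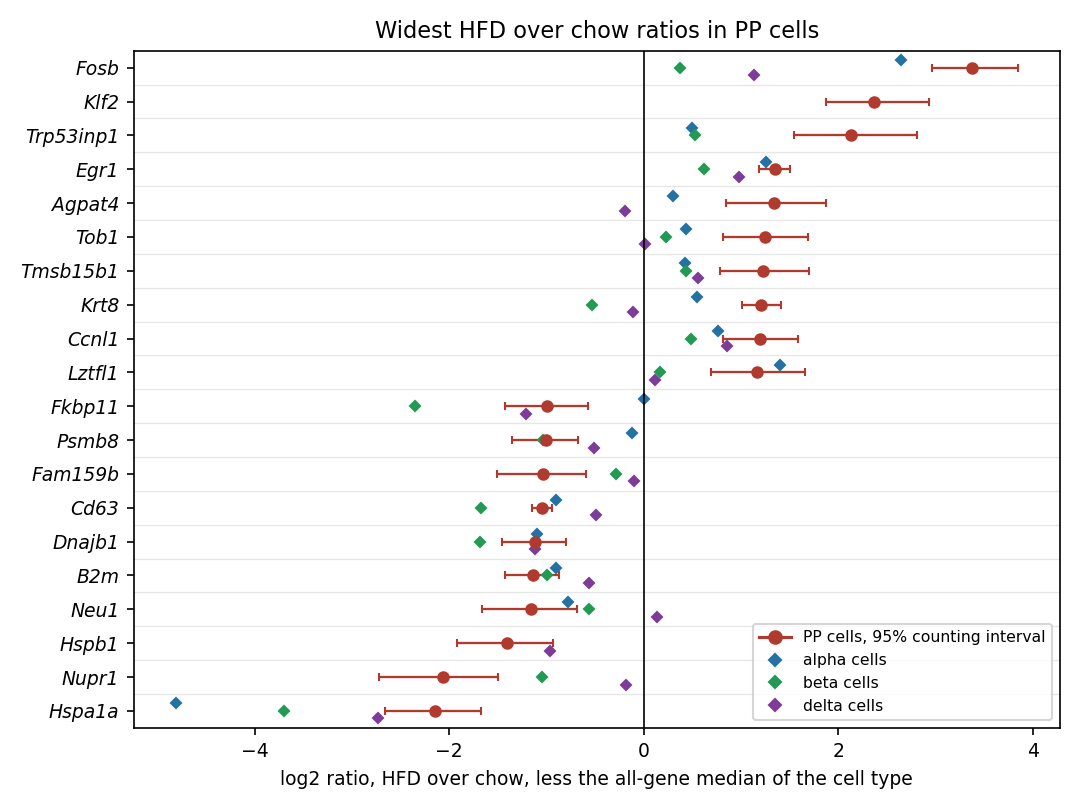
Log2 ratios of HFD over chow, less the all-gene median of each cell type, for the 10 highest and 10 lowest genes in PP cells. Circles with lines are PP cells with 95% counting intervals, and diamonds are alpha, beta and delta cells. Fosb is highest at 3.37 and Hspa1a lowest at -2.14 in PP cells.

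At the low end stood Hspa1a, Nupr1, Hspb1, Neu1 and Dnajb1, among others. Hspa1a, which encodes an inducible HSP70, had 31.9 CPM in HFD and 133 CPM in chow PP cells (-2.14, interval -2.66 to -1.68), and its ratio was -4.81 in alpha, -3.69 in beta and -2.73 in delta cells. All 43 of its HFD UMIs lay in 5 of 155 PP cells, whereas 46 of 192 chow PP cells had a UMI, and its near-identical neighbour Hspa1b can share its reads. Endothelial cells had 77.04 CPM in HFD and 224 CPM in chow. Hspb1, a small heat shock gene, had 35.7 CPM in HFD and 88.9 CPM in chow PP cells (-1.40, interval -1.92 to -0.93), and Dnajb1, an HSP40 partner of HSP70, had 81.7 CPM in HFD and 167 CPM in chow PP cells (-1.12, interval -1.45 to -0.79). The ratio of Dnajb1 was -1.10 in alpha, -1.69 in beta and -1.12 in delta cells, below the limit in each type. Nupr1, a nuclear protein induced by stress, had 21.5 CPM in HFD and 85.8 CPM in chow PP cells (-2.07, interval -2.72 to -1.500).

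Neu1, a lysosomal sialidase, had 37.9 CPM in HFD and 79.5 CPM in chow PP cells (-1.15, interval -1.66 to -0.68). Cd63, a tetraspanin of lysosomes and secretory granules, had 805 CPM in HFD and 1553 CPM in chow PP cells (-1.04, interval -1.15 to -0.94), and its ratio was -0.91 in alpha, -1.67 in beta and -0.49 in delta cells. B2m, the light chain of MHC class I, had 111 CPM in HFD and 231 CPM in chow PP cells (-1.14, interval -1.43 to -0.87), and its ratio was -0.90 in alpha, -0.997 in beta and -0.56 in delta cells. In the chow library the 5 PP cells with most B2m held 41.7% of its UMIs. These cells also held 46 UMIs of the endothelial markers, against 42 in the other 187 cells, and 20 UMIs of the macrophage markers, against 89. The part of other cells' RNA was not tested. Without the 5 cells of each library with most UMIs of the gene, B2m no longer passed the limit.

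Psmb8, a subunit of the immunoproteasome, had 77.2 CPM in HFD and 146 CPM in chow PP cells (-1.01, interval -1.36 to -0.67), and Fkbp11, a folding factor of the endoplasmic reticulum, had 51.2 CPM in HFD and 95.8 CPM in chow PP cells (-0.99, interval -1.43 to -0.58). Fam159b, of which no role is given here, had 43.8 CPM in HFD and 84.5 CPM in chow PP cells (-1.03, interval -1.51 to -0.59). Fkbp11 lay just short of the limit and passed it in 5 of 15 alternatives. Psmb8 passed it in 6, Fam159b in 10, and B2m and Cd63 in 12 of 15. Hspa1a, Nupr1, Hspb1, Neu1 and Dnajb1 stayed past the limit in all 15.

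Gene lists gave the wider picture, each described by its count and median beside the all-gene median of 0 on this scale. Of 13 early response genes compared in PP cells, 12 lay above the all-gene median and 2 passed the upper limit, beside 1.34% of all genes, with a list median of 0.61. The list median was 0.30 in alpha, -0.04 in beta and 0.55 in delta cells. Fos had 1971 CPM in HFD and 1046 CPM in chow PP cells (0.82, interval 0.73 to 0.91), Jun had 1176 CPM in HFD and 736 CPM in chow PP cells (0.58, interval 0.47 to 0.69) and Dusp1, which encodes a phosphatase of MAP kinases, had 250.3 CPM in HFD and 151 CPM in chow PP cells (0.64, interval 0.39 to 0.88).

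Of 17 interferon and MHC class I genes, 13 lay below the all-gene median and 6 passed the lower limit in PP cells, beside 0.759% of all genes, with a list median of -0.64, against -0.12 in alpha, -0.59 in beta and -0.24 in delta cells. Besides B2m and Psmb8, the 6 were Ifit1, Bst2, Rsad2 and Ifitm3, genes induced by interferon, of which Ifitm3 had 4.46 CPM in HFD and 43.2 CPM in chow PP cells and Bst2 had 26.7 CPM in HFD and 56.4 CPM in chow PP cells. Endothelial cells are rich in both, with 1123 CPM in HFD and 1479 CPM in chow for Ifitm3 and 205 CPM in HFD and 215 CPM in chow for Bst2, and the part of their RNA was not tested. H2-D1 and H2-K1, the class I heavy chains, had 424 CPM in HFD and 621 CPM in chow PP cells and 483 CPM in HFD and 569 CPM in chow PP cells, and relatives of the same family can share their reads. Isg15 lay above the all-gene median, at 0.64, interval -0.10 to 1.41.

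Of 14 lysosomal genes, 13 lay below the all-gene median and none passed the limit, with a list median of -0.42 in PP cells, against -0.26 in alpha, -0.23 in beta and -0.12 in delta cells. Ctsl, which encodes cathepsin L, had 364 CPM in HFD and 579.8 CPM in chow PP cells (-0.76, interval -0.93 to -0.61), and Ctsb, which encodes cathepsin B, had 238 CPM in HFD and 353 CPM in chow PP cells (-0.66, interval -0.86 to -0.46). Of 10 heat shock genes, 9 lay below and 3 passed the lower limit (all genes 0.759%), with a list median of -0.28. Of 12 genes of sterol and fatty acid synthesis, 9 lay above the all-gene median, 1 passed the upper limit and 1 the lower (all genes 1.34% and 0.759%), with a list median of 0.44, against 0.54 in alpha, 0.03 in beta and 0.29 in delta cells. Fdps, an enzyme of cholesterol synthesis, had 149 CPM in HFD and 80.1 CPM in chow PP cells (0.80, interval 0.47 to 1.13). The member past the upper limit was Idi1, an isomerase of cholesterol synthesis, at 28.2 CPM in HFD and 12.5 CPM in chow PP cells (1.06, interval 0.26 to 1.94), and the member past the lower limit was Scd2, a fatty acid desaturase, at 17.8 CPM in HFD and 35.7 CPM in chow PP cells (-1.08, interval -1.85 to -0.38).

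Among other lists, 3 folate genes had a list median of -0.57 and 6 islet and gut peptides one of -0.50 in PP cells, with none above the all-gene median and none past the limit. The list median was 0.01 for 81 cytosolic ribosomal proteins, -0.16 for 76 nuclear genes of oxidative phosphorylation, -0.15 for 25 genes of the unfolded protein response and 0.15 for 23 transcription factors, and none of these genes passed the limit. Beta cells had list medians of -0.61 for oxidative phosphorylation and -0.56 for the unfolded protein response. Ion channel and excitability genes had a list median of 0.44 over 9 genes in PP cells, with 7 above the all-gene median and none past the limit. They included Gria2, a glutamate receptor subunit, at 145 CPM in HFD and 89.5 CPM in chow PP cells, and Kcnk3 at 153 CPM in HFD and 106 CPM in chow PP cells. The difference between types was not tested for any list.

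**Figure D5:**
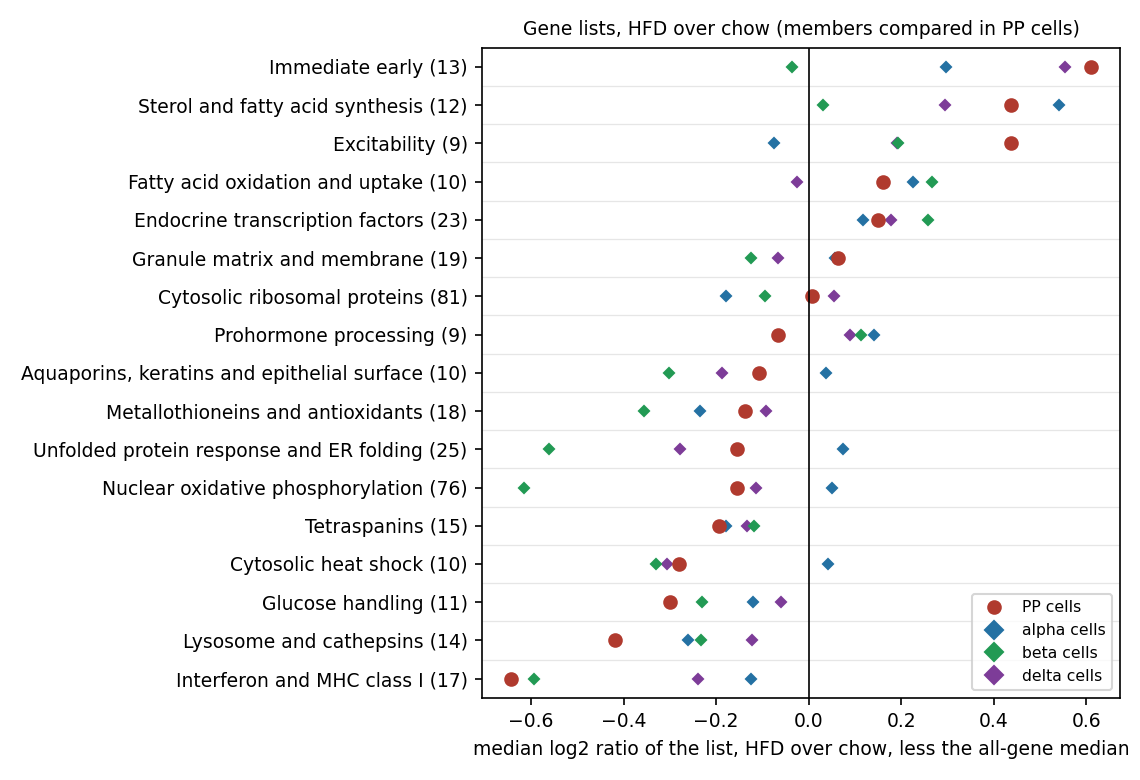
Median log2 ratio of HFD over chow for each gene list, less the all-gene median, with PP cells as circles and alpha, beta and delta cells as diamonds, and the number of members compared in PP cells in brackets. The early response list is highest at 0.61 and the interferon and MHC class I list lowest at -0.64 in PP cells.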

How the data were processed

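RNA of islet cells from 1 HFD and 1 chow library was counted with 10x Genomics 3' v2 chemistry, per the labels' protocols. The deposited matrices hold whole-number counts of UMIs per gene and barcode, without normalization, and the submitters' processing notes name Cell Ranger 2.1.0. No source used here gives the build, annotation, strand setting or cell calling behind them.

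PP cells, comparison types and gene lists were chosen with earlier results of these data known. Counts were summed per type and library and divided by the UMIs outside Ppy, Gcg, Sst, Ins1 and Ins2, with 0.5 counts added in ratios. Intervals are exact at 95% (Poisson, Clopper-Pearson, or the conditional binomial for ratios) and cover counting error only. The smallest level that 3 counts allow is 2.23 CPM in HFD and 1.88 CPM in chow PP cells. With 1 library per diet, diets were not tested, and ratios between types, taken within each library, were not tested as the cells were chosen by these counts.

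Named genes were those past the limit against all 3 types (up to 20 higher, the 10 lowest) and the 10 highest and 10 lowest diet ratios at 50 CPM or more and 100 or more summed counts, without predicted genes, pseudogenes and mitochondrial RNA genes, as well as markers and, of each list, members with the highest level or a call. Other list members, the extremes of single pairs of types, and the splits at 200 Iapp UMIs, 30% Ppy and 0.5% Gcg were chosen after the values were seen. The calls were checked on simulated counts.

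Doublets were scored with Scrublet in scanpy 1.11.5. Its automatic threshold marked 1 HFD and 3 chow cells and so had not worked. No cell was removed for its score in the main results. Trimmed-mean factors came from edgeR 4.0.16, and the rest was computed in Python 3.11.15 with numpy 2.4.6, scipy 1.17.1 and pandas 2.3.3. Of 27998 gene rows, those with a shared symbol (56 symbols) were kept apart by identifier. Sequences came from RefSeq's promoter table for GRCm38.p6. Alternatives changed the limits of the rule, the doublets, the scaling, the filter on low genes and the counts added. Some genes that these rules name are not reported here.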

Additional observations from a re-analysis of the deposited data

Results flagged for a closer look

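The ratio of HFD over chow for Krt8, the keratin gene described above, went in opposite directions in PP and beta cells. Its relative log2 ratio was 1.21 in PP cells and -0.54 in beta cells, with counting intervals on either side of 0. The level was 462 CPM in HFD and 187 CPM in chow PP cells, and 107 CPM in HFD and 139 CPM in chow beta cells. Each type has 1 library per diet, so the difference between the types was not tested.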

How the results depend on the processing

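No paired analysis of diet was possible because each diet has 1 library, and for the same reason no library could be left out of the diet ratios. Ratios between types were taken within each library, which pairs the types, and were not tested. Alternatives were run for the 16 genes named against all 3 types and the 20 named between diets, and no recomputed ratio took the other sign. Ratios of the other named genes were not part of this check. Of 272 ratios recomputed for genes named against other types 266 stayed within the counting interval of the reported value, and of 300 recomputed for genes named between diets 288 did. Psmb8 passed the limit in 6 and Fkbp11 in 5 of 15 alternatives. At a mean of at least 5 CPM the genes higher and lower in PP cells numbered 18 and 37 against all 3 types, 204 and 260 against alpha, 371 and 1196 against beta and 171 and 460 against delta cells, and 365 and 239 between diets. At 50 CPM they numbered 2 and 5, 35 and 52, 80 and 292, 30 and 67, and 15 and 7 in the same order. Scaling to all UMIs gave 2 and 22 against all 3 types, 25 and 262 against alpha, 213 lower against beta, 23 and 524 against delta cells, and 25 and 16 between diets. Trimmed-mean factors gave 250 higher against beta cells, median-of-ratios factors 256 higher and 424 lower, and subtraction of the all-gene median 262 higher.

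The genes lower than in all 3 types numbered 22 with Ppy at 25% or more, 29 at 30% or more, 22 without cells rich in Iapp, 23 with cells of several gates kept, and 9 with the all-gene median subtracted. Without the 5 cells with most UMIs of each gene, 67 genes were lower in HFD PP cells. The share of PP cells was 2.59% in HFD and 2.36% in chow at 30% Ppy, 2.60% in chow at 25% Ppy, and 2.98% in HFD with Gcg under 0.5%. Alternatives at 30% Ppy, under 0.5% Gcg, without Iapp-rich cells, without 5 cells and with the median subtracted were chosen after the data were seen. Depth limits the PP sums, where 3 counts stand for 2.23 CPM in HFD and 1.88 CPM in chow.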

Other observations

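Of the metallothionein and antioxidant list, 1 of 18 genes was higher in PP cells than in alpha, 2 of 19 than in beta and 1 of 18 than in delta cells, and none was lower (all genes 1.38%, 2.96% and 1.51% higher). Over all UMIs these counts were 1, 3 and 0, with 1 lower than in alpha cells. Gpx3 and Gstm1 were chosen from it after their values were seen. Gpx3, which encodes a secreted glutathione peroxidase, had 1285 CPM in HFD and 1326 CPM in chow PP cells. In alpha cells the level was 1997 CPM in HFD and 2803 CPM in chow. It was 92.8 CPM in HFD and 69.5 CPM in chow in beta cells and 908 CPM in HFD and 1405 CPM in chow in delta cells. Gstm1, a glutathione transferase, had 258 CPM in HFD and 245 CPM in chow PP cells. Its level in alpha cells was 68.6 CPM in HFD and 38.4 CPM in chow. Beta cells had 267 CPM in HFD and 206 CPM in chow, and delta cells 269.9 CPM in HFD and 216 CPM in chow. Alpha cells were thus lowest for Gstm1 and beta cells lowest for Gpx3 in both libraries.

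Xbp1, which encodes a factor that expands the endoplasmic reticulum, had 331 CPM in HFD and 357 CPM in chow PP cells, against 200.2 CPM in HFD and 166 CPM in chow alpha cells. Herpud1, a protein of the degradation pathway of that organelle, had 254 CPM in HFD and 207 CPM in chow PP cells, against 110.4 CPM in HFD and 79.7 CPM in chow alpha cells, and Dnajb9, a co-chaperone there, had 282 CPM in HFD and 329 CPM in chow PP cells, against 105 CPM in HFD and 94.5 CPM in chow alpha cells. Of 26 genes of the unfolded protein response compared with alpha cells, 3 were higher and none lower in PP cells, or 1 to 4 higher under the other scalings, beside 1.38% of all genes. Of 26 compared with beta cells none was higher and 3 were lower (all genes 2.96% and 11.4%). Of 26 compared with delta cells none was past the limit (all genes 1.51% and 3.47%), or 5 were lower over all UMIs. Xbp1, Herpud1 and Dnajb9 were chosen after their values were seen.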
